A study of Mus musculus with 6 samples.

Results

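The water and ion transporters of the cornea described here are 9 genes: the water channels Aqp1, Aqp3 and Aqp5, the membrane transporters Slc4a11, Slc4a4 and Slc12a2, the sodium pump subunit Atp1b1, and the carbonic anhydrases Car2 and Car3. They were picked by symbol from the 55421 mouse genes listed in the count files, all 9 were found, and all 9 had enough reads to be tested. The RNA came from corneas of 20-week-old mice. There were 3 libraries heterozygous for a mutation of Pax6 (M1 to M3), set against 3 wildtype libraries (W1 to W3). The labels do not name the Pax6 allele, the strain or the number of corneas per library, and the series design calls the libraries of a genotype biological replicates. The comparison asked which transcripts differ in a mouse model of aniridia-related keratopathy, the corneal disease that follows loss of a working Pax6 copy.

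The cornea stays clear because its water content is held low. The endothelium at its back face moves bicarbonate, chloride and sodium out of the stroma with the sodium pump, sodium bicarbonate cotransport and carbonic anhydrase, and water follows. The epithelium at its front face carries its own water channels and secretes chloride toward the tears, which it loads with the sodium-potassium-chloride cotransporter encoded by Slc12a2.

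The libraries held 16858005 to 21846406 counts in genes. Pax6 had 454, 394 and 356 CPM (counts of a gene, with every library scaled to a common total) in mutant libraries, against 849, 746 and 774 CPM in wildtype libraries. Markers of the corneal epithelium were abundant in every library, with a summed level over the 9 markers in the files of 19620 to 26133 CPM in mutant and 38081 to 52335 CPM in wildtype libraries. The 9 corneal endothelial markers in the files, a list that includes Slc4a11, summed to 539 to 671 CPM in mutant and 393 to 478 CPM in wildtype libraries. Some libraries stood apart in other tissue. In W1 the 7 markers of pigment cells of the iris and ciliary body summed to 9.87 CPM, with 2 of them at 0, against 245 to 431 CPM in mutant libraries and 194 and 318 CPM in W3 and W2. W1 also had 2.84 CPM over 8 blood vessel markers, against 55.5 to 123 CPM in mutant libraries and 37.3 and 47.4 CPM in W2 and W3. In W3 the 8 retina markers, a list made after the values were seen, summed to 1913 CPM, against 15.8 to 81.2 CPM in mutant libraries and 12.1 and 59.3 CPM in W1 and W2. Keratocyte markers summed to 4968 CPM in M1, 2052 CPM in M2 and 1137 CPM in M3, against 377 to 535 CPM in wildtype libraries.

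Of the 9 transporter genes, 1 rose (Aqp1) and 2 fell (Aqp5 and Slc12a2) in mutant corneas, with 0.05 as the threshold on the adjusted p of the edgeR quasi-likelihood test. Over all 15209 genes tested, 5.59% were called higher and 4.46% lower, or 10.1% in either direction. For 5 of the 9 genes the 2 genotypes' libraries did not overlap, and over all tested genes this held for 31.9%. The median log2 fold change of the 9 genes was 0.48 and that of all tested genes 0.01. In size regardless of sign, the medians were 0.99 for the 9 genes and 0.36 for all tested genes. With 9 genes, these medians are the values of single genes. They are those of Slc4a11 (SE 0.59) and Car3 (SE 0.9993), neither of which was called. With single libraries left out, 0 to 1 of the 9 genes were called higher and 0 to 2 lower. In these bulk samples, fewer cells of a type and less RNA per cell cannot be told apart.

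**Figure D1:**
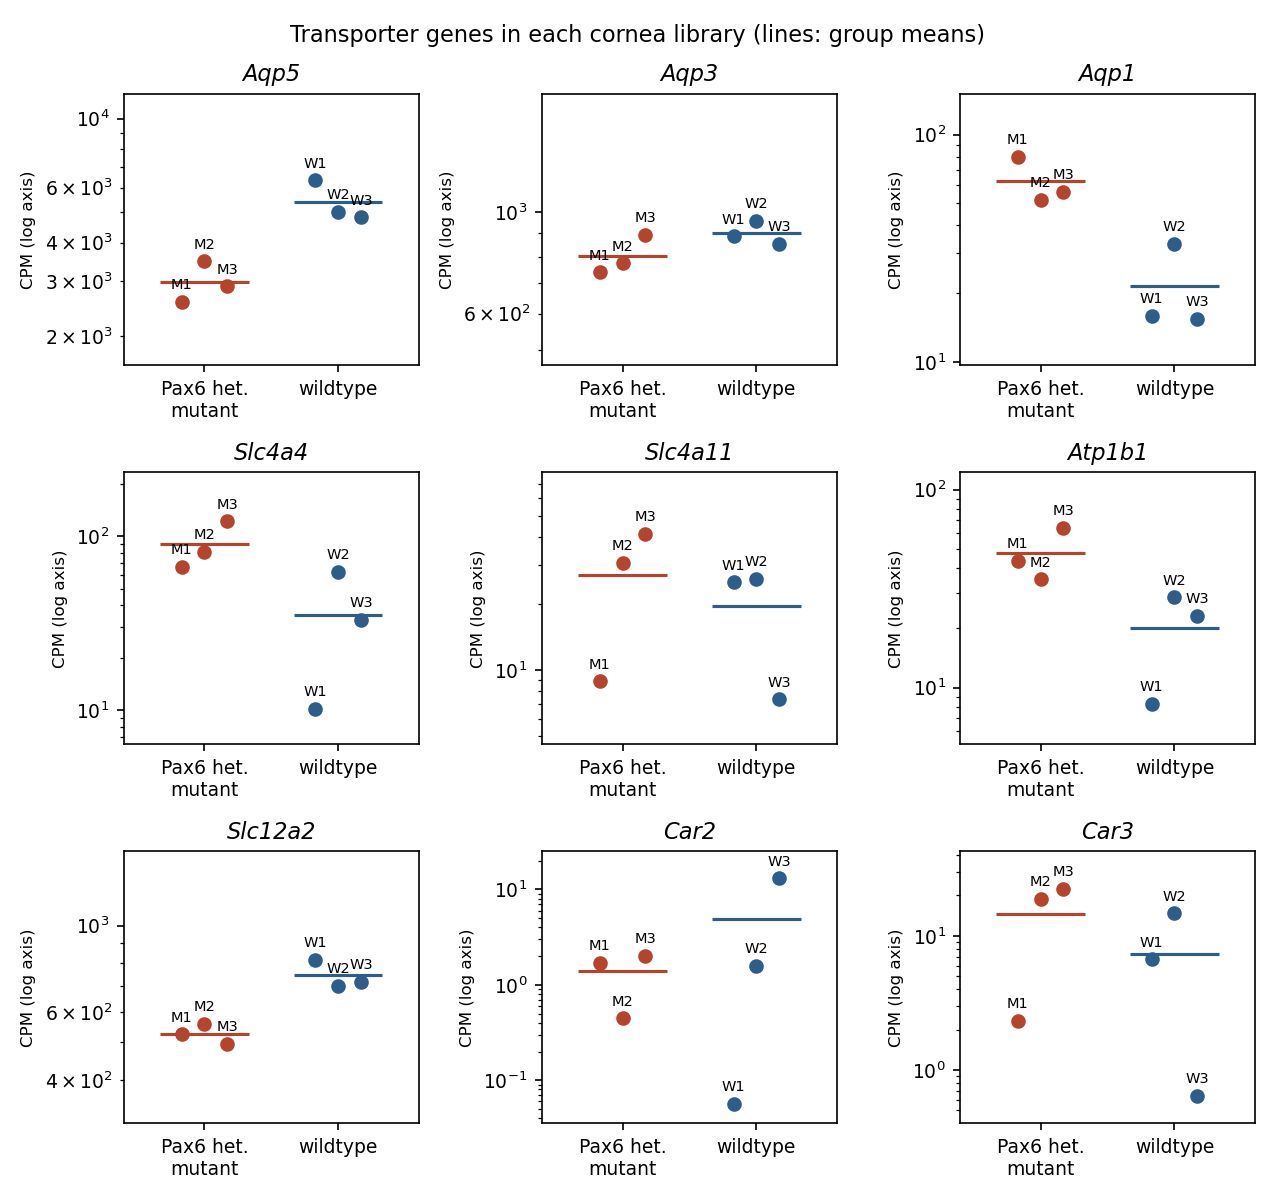
CPM on a log axis for each of the 9 transporter genes, with 1 point per library (mutant M1 to M3 left, wildtype W1 to W3 right) and a line at each group mean. The mutant points of Aqp5 and Slc12a2 lie below all wildtype points, those of Aqp1, Slc4a4 and Atp1b1 lie above them, and the groups of Aqp3, Slc4a11, Car2 and Car3 overlap.

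Aqp5 and Aqp3 are the water channels of the corneal epithelium. Aqp5, a water channel that is also found in lacrimal and salivary glands, had 2583, 3482 and 2894 CPM in mutant libraries, against 6340, 5030 and 4821 CPM in wildtype libraries. Every mutant library lay below every wildtype library, and W1 was the highest of all. Aqp5 averaged 2987 ± 457 CPM in mutant and 5397 ± 824 CPM in wildtype corneas (SD, n = 3 each). The log2 fold change of Aqp5 was -0.85 ± 0.18 (SE), a 1.81-fold lower level in mutant corneas (adjusted p = 0.025, edgeR quasi-likelihood). The call ended without M1 (adjusted p = 0.11 by edgeR), M2 (0.055), M3 (0.13) or W2 (0.053), and Aqp5 was still called without W1, at -0.72 (adjusted p = 0.0086).

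Aqp3, which passes glycerol as well as water, had 740, 774 and 892 CPM in mutant libraries, against 887, 959 and 854 CPM in wildtype libraries. The groups overlap, because M3 exceeded W1 and W3. The log2 fold change of Aqp3 was -0.17, with a 95% interval of -0.47 to 0.13 (adjusted p = 0.51, edgeR quasi-likelihood). With single libraries left out it ran from -0.26 to -0.11. The interval leaves out a fall as large as that measured for Aqp5, and the p does not show that the genotypes were alike. Per kilobase of merged exons, the level of Aqp5 was 2.46, 3.17 and 2.28 times that of Aqp3 in mutant libraries, against 5.03, 3.69 and 3.98 times in wildtype libraries. The highest mutant ratio was below the lowest wildtype ratio.

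The fall of Aqp5 stood beside lower levels of several epithelial markers. Of 9 such markers tested, 4 fell and 1 rose. The corneal keratin Krt12 averaged 5237 ± 1673 CPM in mutant and 18455 ± 3233 CPM in wildtype corneas, and Tkt, the transketolase of the corneal epithelium, 1347 ± 324 CPM in mutant and 4782 ± 310 CPM in wildtype corneas (SD, n = 3 each). Krt5, a keratin of basal epithelial cells, had 7281 ± 731 CPM in mutant and 10936 ± 1992 CPM in wildtype corneas, and was not called (adjusted p = 0.10 by edgeR). Krt14, the basal partner of Krt5, was the marker that rose, to 1466 ± 353 CPM in mutant corneas against 366 ± 79.4 CPM in wildtype corneas. Exons of Krt12 share 1007 bases with an antisense gene, and those of Krt5 129 bases with a microRNA gene, so their counts are uncertain. Those of Tkt share 1 base with a microRNA gene. The part of these markers in the level of Aqp5 was not tested. Of the 7 lacrimal and meibomian gland markers, 4 were at 0 in all libraries and the sum was 1.22 to 2.57 CPM in mutant and 0.214 to 0.795 CPM in wildtype libraries.

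Aqp1, Slc4a4 and Slc4a11 serve the endothelium and the stroma. Aqp1, the water channel of corneal endothelial cells and keratocytes and also of blood vessels, had 79.9, 51.6 and 56.1 CPM in mutant libraries, against 15.9, 33.0 and 15.5 CPM in wildtype libraries. All mutant libraries lay above all wildtype libraries. Aqp1 averaged 62.5 ± 15.2 CPM in mutant and 21.5 ± 10.01 CPM in wildtype corneas (SD, n = 3 each). Its log2 fold change was 1.54 ± 0.32 (SE), a 2.91-fold higher level in mutant corneas (adjusted p = 0.021, edgeR quasi-likelihood). The call ended without M1 (adjusted p = 0.079 by edgeR), M2 (0.052), M3 (0.074) or W3 (0.062), and without M1 and W1 together (0.067), where the log2 fold change was 1.13. It was kept without W1, at 1.37 (adjusted p = 0.030).

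Marker transcripts of cell types known to carry Aqp1 differed in level between the libraries. None of the 9 endothelial markers was called by edgeR's quasi-likelihood test or DESeq2, and 4 had an unadjusted p under 0.05 by edgeR. The basement membrane collagen Col8a2 had 85.8, 71.1 and 70.8 CPM in mutant libraries, against 15.0, 51.9 and 13.4 CPM in wildtype libraries (adjusted p = 0.092 by edgeR). Like Aqp1, Col8a2 was higher in W2 than in W1 and W3. Of 10 keratocyte markers 6 rose and none fell. Of 8 blood vessel markers none was called by edgeR, 2 were by DESeq2 and 2 had an unadjusted p under 0.05 by edgeR; the summed levels are those given above. Red blood cell markers summed to 4.82 to 12.0 CPM in mutant and 3.97 to 11.6 CPM in wildtype libraries. The part of keratocytes, endothelium, vessels and blood in the rise of Aqp1 was not tested.

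The sequences before the starts of Aqp1, which rose, and Aqp3, which was not called, are shown so that the windows of a changed and an uncalled water channel can be compared. They are the 250 bases before the RefSeq start on GRCm38.p6, at chr6:55336049-55336298 on the plus strand for Aqp1 and chr4:41098184-41098433 on the minus strand for Aqp3, written 5′ to 3′ along the gene. Capitals mark TATAAA, the TATA box, and GGGCGG, a box bound by Sp and Klf factors, on either strand.
Aqp1: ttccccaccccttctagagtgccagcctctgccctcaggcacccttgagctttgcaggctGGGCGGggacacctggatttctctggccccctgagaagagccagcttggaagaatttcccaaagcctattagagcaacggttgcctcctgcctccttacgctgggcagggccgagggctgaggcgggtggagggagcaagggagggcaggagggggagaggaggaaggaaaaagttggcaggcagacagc
Aqp3: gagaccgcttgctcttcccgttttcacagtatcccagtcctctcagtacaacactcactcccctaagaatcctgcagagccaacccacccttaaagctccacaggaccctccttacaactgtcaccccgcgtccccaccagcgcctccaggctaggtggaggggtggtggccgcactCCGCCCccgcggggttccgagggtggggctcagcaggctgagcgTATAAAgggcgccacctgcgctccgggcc
The Aqp3 window has TATAAA starting 29 bases before the start, and the box GGGCGG on the opposite strand starting 73 bases before it. The Aqp1 window has GGGCGG on its own strand starting 190 bases before the start, and no TATAAA. The 2 windows are not placed alike against the gene annotation. The Aqp3 window, from 41098184, abuts the annotated gene, which ends at 41098183 on the minus strand. The Aqp1 window ends at 55336298, but the annotated gene starts at 55336432. The bases between were not searched, so a TATAAA there would have been missed. Of 32851 mouse windows of this length, 12.4% hold TATAAA and 32.7% hold GGGCGG on either strand. TTCACGC, a core of the site bound by the Pax6 paired domain, was searched on both strands and is not among the letters of these windows; 1.03% of all windows hold it. The corresponding window of Aqp5 lies in an annotated first exon and is not shown. Factor binding was not measured in these corneas.

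Slc4a4 encodes the electrogenic sodium bicarbonate cotransporter that brings bicarbonate into endothelial cells, and it is also used by the ciliary body. It had 66.6, 81.6 and 122 CPM in mutant libraries, against 10.2, 62.4 and 33.1 CPM in wildtype libraries. The groups did not overlap, but W2 came close to M1, and W1 lay 6.11 times below W2. Slc4a4 had a log2 fold change of 1.36 ± 0.54 (SE; 95% interval 0.10 to 2.61; adjusted p = 0.17, edgeR quasi-likelihood), so that it was not called. Without W1, the library with the fewest pigment cell counts, it was 0.92 (adjusted p = 0.10 by edgeR), and without W2 it was 2.06 (adjusted p = 0.066). Its relative Slc4a5, a further sodium bicarbonate cotransporter named after its values were seen, had 80.5, 65.8 and 106 CPM in mutant libraries, against 1.19, 52.1 and 34.2 CPM in wildtype libraries. It was also low in W1 and was not called (adjusted p = 0.35).

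Slc4a11, a transporter of the endothelial membrane whose human counterpart is mutated in congenital hereditary endothelial dystrophy, had 8.88, 30.7 and 41.4 CPM in mutant libraries, against 25.0, 25.9 and 7.38 CPM in wildtype libraries. M1 and W3 were low and the other 4 libraries stood at 25.0 CPM or more, so the groups overlapped and the spread was within each genotype. The log2 fold change of Slc4a11 was 0.48, with a 95% interval of -0.88 to 1.84 (adjusted p = 0.69, edgeR quasi-likelihood). The interval holds both 0 and a rise as large as that measured for Aqp1. With single libraries left out the log2 fold change of Slc4a11 ran from 0.02 (without M3) to 0.90 (without M1), with no call in any of these fits.

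Slc12a2, Atp1b1 and the carbonic anhydrases are used in more than a single layer of the cornea. Slc12a2, the cotransporter that loads epithelial cells with chloride, had 526, 558 and 496 CPM in mutant libraries, against 818, 699 and 717 CPM in wildtype libraries. All mutant libraries lay below all wildtype libraries. Slc12a2 averaged 527 ± 31.3 CPM in mutant and 745 ± 64.0 CPM in wildtype corneas (SD, n = 3 each). The log2 fold change was -0.50 ± 0.12 (SE), a 1.41-fold lower level in mutant corneas (adjusted p = 0.042, edgeR quasi-likelihood). The call ended without M1 (adjusted p = 0.14 by edgeR), M2 (0.11), M3 (0.19), W2 (0.075) or W3 (0.079), and was kept without W1, at -0.43 (0.022).

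Atp1b1, the beta subunit that brings the sodium pump to the membrane, had 43.7, 35.2 and 64.2 CPM in mutant libraries, against 8.28, 28.5 and 23.0 CPM in wildtype libraries. The groups did not overlap, and W1 was the lowest library. Atp1b1 had a log2 fold change of 1.26 ± 0.42 (SE; 95% interval 0.29 to 2.22; adjusted p = 0.11, edgeR quasi-likelihood), so that it was not called. Without W1 it was 0.89 (adjusted p = 0.057 by edgeR), and DESeq2 called it (adjusted p = 0.012). Exons of Atp1b1 share 575 bases with those of Nme7 on the opposite strand. How the counting treated strand is not stated in the labels, so these counts are uncertain.

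**Figure D2:**
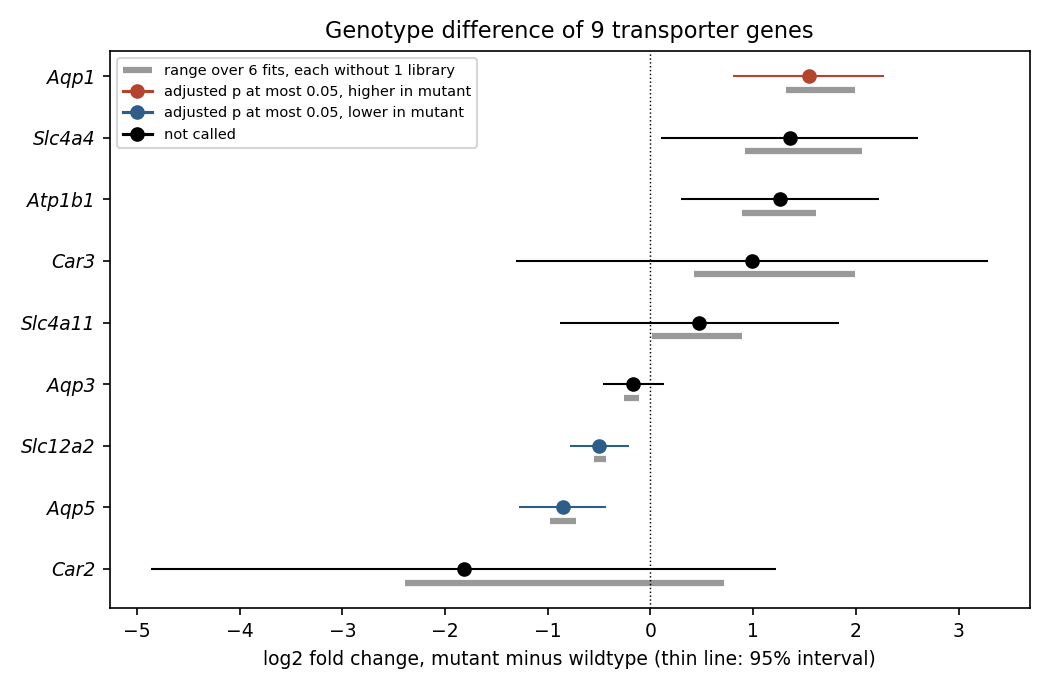
Log2 fold change of each of the 9 transporter genes, mutant minus wildtype, with its 95% interval as a thin line and, as a grey bar, the range over 6 fits that each leave out 1 library. The intervals of Aqp1, Aqp5 and Slc12a2, which passed the adjusted threshold, and those of Slc4a4 and Atp1b1, which did not, lie on a single side of 0, and the interval of Car2 is the widest (-4.86 to 1.23).

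Car2 and Car3 lie in the same cluster on chromosome 3, where Car3 starts at 14863512 and Car2 at 14886273. Car2, a fast cytosolic carbonic anhydrase used by the endothelial pump and also by retina and red blood cells, had the lowest mean level per length in both genotypes, although in W3 it stood above Slc4a4, Slc4a11 and Car3. It had 1.71, 0.444 and 2.03 CPM in mutant libraries, against 0.0567, 1.59 and 13.2 CPM in wildtype libraries. These are 28, 8 and 45 counts in mutant libraries, against 1, 28 and 246 counts in wildtype libraries. The high library is W3, which also held the retina counts. The log2 fold change of Car2 was -1.82 ± 1.32 (SE; adjusted p = 0.47, edgeR quasi-likelihood). Without W3 its sign turned, to 0.72 (adjusted p = 0.80 by edgeR). Red blood cell markers summed to 10.3 CPM in W3, 11.6 CPM in W2 and 3.97 CPM in W1. The part of retina and blood in the level of Car2 was not tested.

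Car3, a carbonic anhydrase of low activity known for its abundance in muscle and fat, had 2.33, 18.9 and 22.4 CPM in mutant libraries, against 6.70, 14.7 and 0.642 CPM in wildtype libraries. M1 and W3 were lowest, as for Slc4a11, and the groups overlapped. Car3 had a log2 fold change of 0.99 (SE 0.9993; adjusted p = 0.62, edgeR quasi-likelihood). With single libraries left out it ran from 0.42 (without W3) to 1.99 (without W2), with no call in any of these fits. Muscle markers were highest in W3, where Car3 was lowest, with a sum of 33.2 CPM there against at most 1.498 CPM in mutant libraries. The 8 fat cell markers summed to 0.999 to 1.775 CPM in mutant and 0.341 to 1.08 CPM in wildtype libraries. Of these, Adipoq, Plin1, Cfd and Cidec were at 0 in all 6 libraries, while Fabp4 and Adrb3 had counts in all mutant libraries. The part of muscle and fat in the level of Car3 was not tested.

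Levels of different members were compared as CPM per kilobase of merged exons. In mutant corneas Aqp5 stood at 1149 ± 176, Aqp3 at 438 ± 43.7 and Slc12a2 at 48.2 ± 2.87 (SD, n = 3). In wildtype corneas the same genes stood at 2077 ± 317, 492 ± 29.4 and 68.2 ± 5.86 (SD, n = 3). Aqp1 followed, at 23.8 ± 5.78 in mutant and 8.18 ± 3.81 in wildtype corneas. In mutant corneas the next levels were 15.5 ± 4.83 for Atp1b1, 8.34 ± 2.66 for Slc4a4, 5.41 ± 3.32 for Slc4a11 and 5.07 ± 3.74 for Car3. In wildtype corneas those of Atp1b1 were 6.47 ± 3.39, of Slc4a11 3.89 ± 2.09, of Slc4a4 3.26 ± 2.42 and of Car3 2.56 ± 2.46. In wildtype corneas the means of Slc4a11, Slc4a4 and Car3 lay within 1 SD of each other. In mutant corneas this held for Slc4a11 and Car3, while both their means lay more than 1 SD of Slc4a4 below its mean. Car2 came last, at 0.576 ± 0.346 in mutant and 2.04 ± 2.96 in wildtype corneas.

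Epithelial and endothelial or stromal transporters were set side by side within each library. Of the 2 epithelial genes Aqp5 fell and Aqp3 was not called, and of the 3 endothelial or stromal genes Aqp1 rose and Slc4a4 and Slc4a11 were not called. The summed level per length of Aqp3 and Aqp5 was 36.5, 52.9 and 39.1 times that of Aqp1, Slc4a4 and Slc4a11 in mutant libraries, against 243, 105 and 223 times in wildtype libraries. The highest mutant value was below the lowest wildtype value. Aqp5 was the largest part of the first sum and Aqp1 of the second in every library. The ratio thus largely restates the calls of these 2 genes, while Aqp3 and Slc4a11 overlapped between genotypes. Keratocyte markers moved beside this ratio, with the summed levels of 1137 to 4968 CPM in mutant and 377 to 535 CPM in wildtype libraries, and their part in it was not tested. Within the 3 water channels, Aqp1 made up 2.13%, 1.10% and 1.32% of the summed level in mutant libraries, against 0.207%, 0.509% and 0.253% in wildtype libraries. Aqp5 made up 69.6%, 75.2% and 68.6% in mutant libraries, against 83.2%, 78.3% and 79.7% in wildtype libraries. These ratios are descriptions, given without a test because the members were chosen with results of these data known.

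**Figure D3:**
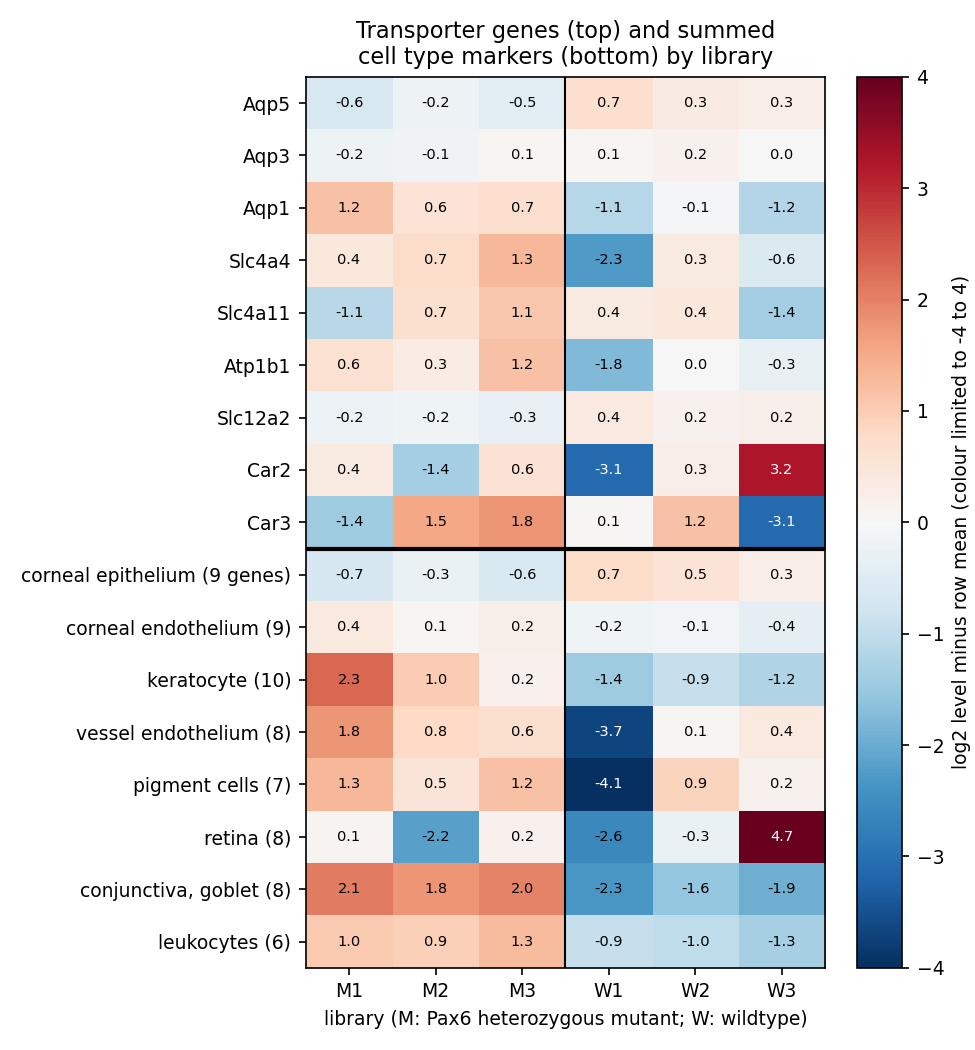
Log2 level of each transporter gene (top) and of the summed CPM of each cell type marker list (bottom) in each library, minus the mean of its row, with mutant libraries left and wildtype libraries right. Aqp5 and the summed epithelial markers are lower in every mutant library, although Krt14 and Klf5 of that list are higher there. Slc4a4 and Atp1b1 are lowest in W1 as are the vessel and pigment cell markers, and Car2 and the retina markers are highest in W3.

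The transporter genes did not share a single pattern over the 6 libraries. For each, the nearest of 7878 genes with at least 10 CPM was sought by the root mean square difference of log2 levels, each centred on its own mean. Nearest to Aqp5 was Dusp7, a phosphatase of mitogen-activated protein kinases, at 0.05, ahead of Dnajc4 at 0.05 and Rnf152 at 0.06. Ier5 was nearest to Slc12a2 at 0.03, ahead of the cation channel Trpm4 and the nuclear export receptor Xpo6. Aqp3 was matched most closely by the nucleotide sugar transporter Slc35b4 at 0.03, and by Golph3 and Lamp2 at 0.04. The nearest to Aqp1 were the basement membrane collagen Col4a1 and the phospholipid transfer protein Pltp at 0.19 each, then Rhoj at 0.20. Col4a1 had 125, 66.8 and 87.0 CPM in mutant libraries, against 17.3, 39.8 and 21.6 CPM in wildtype libraries.

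Apolipoprotein E (Apoe) was nearest to Slc4a4 at 0.20, followed by Id3 at 0.30 and the guidance ligand Slit2 at 0.32. Mdfic was nearest to Atp1b1 at 0.11, ahead of Id3 at 0.15 and Ogfrl1 at 0.18. The nearest to Slc4a11 were Mcm2 and Mcm5, subunits of the replicative helicase, at 0.37 and 0.40, and the chromatin remodeller Hells at 0.43. Slc4a11 itself was nearest to Car3, at 0.92, ahead of Mcm5 and Hells. Mcm2 had 15.7, 39.3 and 39.3 CPM in mutant libraries, against 44.9, 27.7 and 13.1 CPM in wildtype libraries, and was low in M1 and W3 as Slc4a11 and Car3 were. Among the genes nearest to Car2 were the photoreceptor genes Sag at 0.65 and Abca4 at 0.76, both highest in W3. These are descriptions over 6 libraries that share their genotype split, and many genes were searched.

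Further genes of the same transport processes were taken from lists of 143 genes, of which 95 had enough reads to be tested. Of these 95, 21 rose, 7 fell and 67 were not called, with a median log2 fold change of 0.37. Their groups did not overlap in 46. Over all 15209 genes tested, 5.59% were called higher and 4.46% lower, and 31.9% did not overlap. The median log2 fold change of all tested genes was 0.01. The counts of each list below stand beside these same shares, and no set was tested. With single libraries left out the counts were 9 to 25 higher and 0 to 6 lower; they were 13 and 3 without M1, 10 and 2 without M2, 9 and 0 without M3, 25 and 6 without W1, 11 and 3 without W2, and 15 and 4 without W3. Low genes pass the read filter more easily where a group is high. Markers of other tissue moved with genotype beside these genes. All 6 tested conjunctiva and goblet cell markers rose, with sums of 6156 to 7556 CPM in mutant and 358 to 609 CPM in wildtype libraries. Of 6 leukocyte markers 5 rose, with sums of 182 to 229 CPM in mutant and 37.8 to 50.1 CPM in wildtype libraries. Exons of the leukocyte marker Itgam share 3450 bases with those of Gm49368 on the same strand, so its counts are uncertain. The part of conjunctival cells, goblet cells and leukocytes in the transport results was not tested. Of the 18 genes of these lists named below, 7 were called in each of 6 fits that left out 1 library.

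Among sodium pump subunits and FXYD regulators, 4 of 10 tested genes rose and 1 fell. Fxyd5, a regulator of the pump and of cell adhesion, rose 7.25-fold to 6.36 ± 1.42 CPM in mutant corneas, against 0.871 ± 0.342 CPM in wildtype corneas (SD, n = 3 each). Fxyd4, the regulator known from kidney collecting duct, fell to 0.491 ± 0.268 CPM in mutant corneas, against 4.35 ± 1.39 CPM in wildtype corneas, and its call ended without M1, M3 or W2.

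Of 6 tested carbonic anhydrases other than Car2 and Car3, 2 rose and none fell. Car12, a membrane-bound form that faces the outside of the cell, had 30.4, 25.2 and 42.5 CPM in mutant libraries, against 6.58, 8.12 and 5.83 CPM in wildtype libraries. Its log2 fold change was 2.26 ± 0.25 (SE; adjusted p = 0.0015 by edgeR). Cytosolic Car13, which lies in the same chromosome 3 cluster as Car2 and Car3, had 21.5, 24.9 and 32.2 CPM in mutant libraries, against 6.18, 8.69 and 7.22 CPM in wildtype libraries, a rise of 1.83 ± 0.23 on the log2 scale (SE; adjusted p = 0.0025).

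Of 26 tested chloride channel genes 7 rose and 2 fell. Cftr, the channel opened by cyclic AMP, had 18.5, 18.5 and 21.9 CPM in mutant libraries, against 1.82, 1.31 and 1.93 CPM in wildtype libraries. Its log2 fold change was 3.54 ± 0.26 (SE; adjusted p = 0.00057 by edgeR), 11.6-fold. Clca3b, of the family of calcium-activated chloride channel regulators, had 463, 537 and 594 CPM in mutant libraries, against 102, 21.6 and 21.1 CPM in wildtype libraries. Its family lies in tandem copies that could share reads, which makes its counts uncertain. Lrrc8b and Lrrc8e, subunits of the volume-regulated anion channel, both fell, Lrrc8b by 0.63 ± 0.15 and Lrrc8e by 1.04 ± 0.27 log2 units (SE). Lrrc8e lost its call without any 1 of the 6 libraries. Of 12 anion transporters of the SLC4 and SLC26 families, 2 rose and none fell. Slc26a4, the anion exchanger pendrin, had 12.7, 14.1 and 27.3 CPM in mutant libraries, against 0.794, 3.01 and 2.89 CPM in wildtype libraries, and its call ended without M3 (adjusted p = 0.059 by edgeR). Slc26a9 had 4.10, 6.33 and 15.1 CPM in mutant libraries, against 0.681, 0 and 0 CPM in wildtype libraries, and was called in 1 of the 6 fits without 1 library.

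Of the 5 tested kinases that act on Slc12a2 and its relatives, Stk39 rose, Wnk4 fell and the other 3 were not called. Stk39, the kinase known as SPAK that phosphorylates the Slc12a2 protein, had 50.01, 31.1 and 43.4 CPM in mutant libraries, against 2.55, 10.8 and 11.6 CPM in wildtype libraries. Stk39 rose by 2.32 ± 0.49 on the log2 scale (SE; adjusted p = 0.022 by edgeR), and the call ended without M1, M2, M3 or W2. Wnk4, a kinase that activates Stk39, had 38.6, 36.1 and 26.8 CPM in mutant libraries, against 137, 83.1 and 69.2 CPM in wildtype libraries. It fell by 1.51 ± 0.27 on the log2 scale (SE; adjusted p = 0.011), a call that ended without M3 (adjusted p = 0.057). Of the 6 tested cotransporters of the SLC12 family besides Slc12a2, the potassium-chloride cotransporter Slc12a7 rose by 1.04 ± 0.19 log2 units (SE), a call that ended without M2, M3, W2 or W3.

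**Figure D4:**
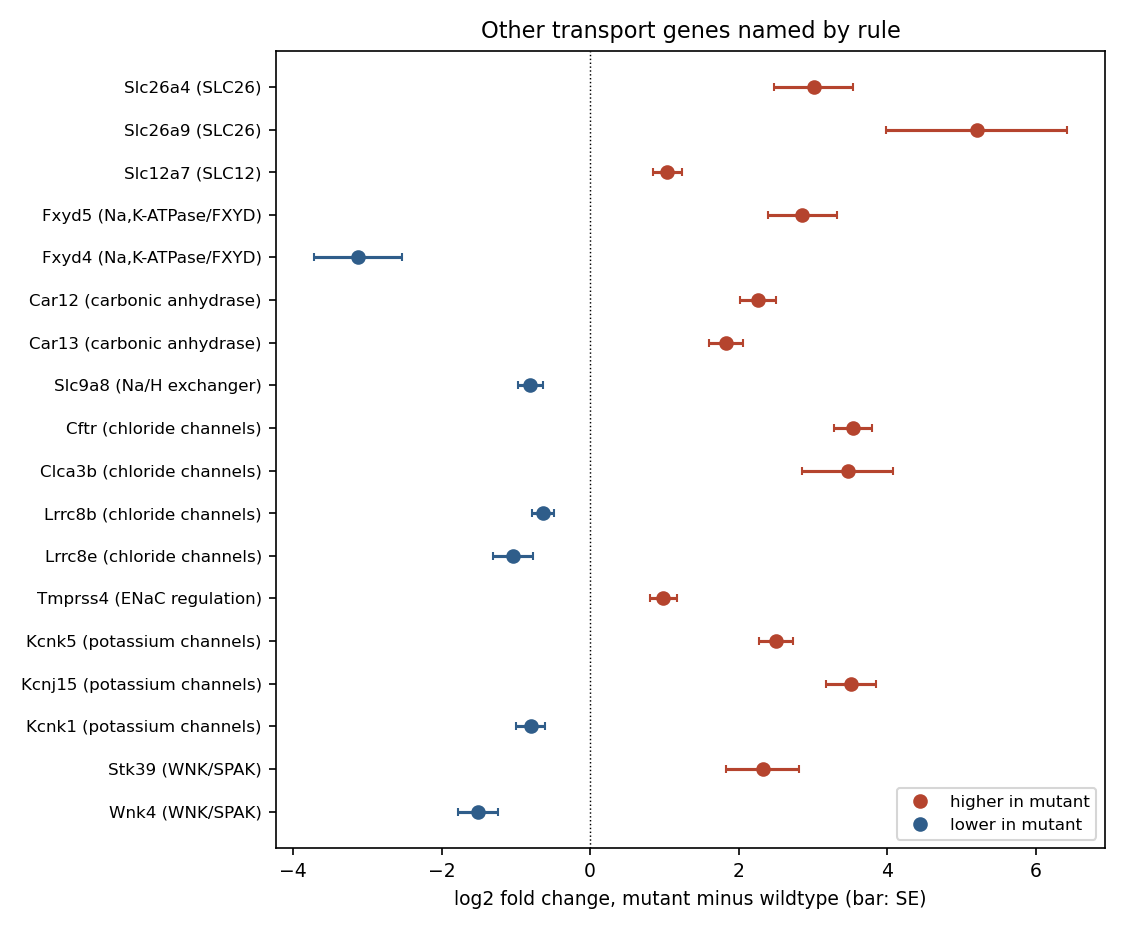
Log2 fold change, mutant minus wildtype, with SE bars, of the 18 other transport genes named, which all passed the adjusted threshold. The fitted values run from -3.13 for Fxyd4 to 5.20 for Slc26a9, which is at 0 in W2 and W3 and runs from 4.49 to 10.31 with single libraries left out. Car12, Car13, Cftr and Stk39 lie to the right of 0 and Wnk4 to the left.

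Potassium channels, sodium channel regulators and exchangers completed the lists. Of 11 tested potassium channels 3 rose and 1 fell. Kcnj15, an inward rectifier, rose to 43.0 ± 16.8 CPM in mutant corneas, against 3.77 ± 0.516 CPM in wildtype corneas, and Kcnk5, a leak channel sensitive to alkaline pH, to 51.9 ± 5.64 CPM in mutant corneas, against 9.12 ± 2.54 CPM in wildtype corneas (SD, n = 3 each). Kcnk1, a further leak channel, fell by 0.80 ± 0.20 on the log2 scale (SE). Of 8 genes of the epithelial sodium channel and its regulators, the protease Tmprss4 was the only called gene, at 185 ± 29.0 CPM in mutant and 93.1 ± 19.5 CPM in wildtype corneas. Of 9 sodium-proton exchangers and regulators, Slc9a8, an exchanger of inner membranes, fell by 0.81 ± 0.17 on the log2 scale (SE). Of the other water channels Aqp4 and Aqp11 were tested and not called, with unadjusted p of 0.45 and 0.59 by edgeR. The call of Lrrc8b ended without M2, M3, W2 or W3, that of Tmprss4 without M2, M3 or W2, that of Slc9a8 without M1, M2, M3 or W3, and that of Kcnk1 without any library except W3. The exons of Cftr, Kcnj15, Kcnk1, Tmprss4 and Wnk4 overlap antisense genes and those of Fxyd5 a microRNA gene, so their counts are uncertain.

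All 9 genes are annotated as protein-coding on GRCm38, and counts cover their annotated exons, untranslated regions included. Aqp5 (ENSMUSG00000044217) lies at chr15:99590782-99594829 on the plus strand, Aqp3 (ENSMUSG00000028435) at chr4:41092722-41098183 on the minus strand and Aqp1 (ENSMUSG00000004655) at chr6:55336432-55348555 on the plus strand. Slc4a4 (ENSMUSG00000060961) lies at chr5:88886818-89239653 on the plus strand, Slc4a11 (ENSMUSG00000074796) at chr2:130684113-130697519 on the minus strand and Slc12a2 (ENSMUSG00000024597) at chr18:57878678-57946821 on the plus strand. Atp1b1 (ENSMUSG00000026576) lies at chr1:164437109-164458355 on the minus strand, and Car2 (ENSMUSG00000027562) and Car3 (ENSMUSG00000027559) at chr3:14886273-14900770 and chr3:14863512-14872523 on the plus strand. Atp1b1 alone among them has exons that overlap those of another annotated gene.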

How the data were processed

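Corneal RNA of 3 Pax6 heterozygous mutant and 3 wildtype libraries was sequenced as paired reads from a stranded total RNA kit, per the labels' protocols. The deposited files hold raw counts per Ensembl gene, with no normalization by the authors. The submitters' processing notes name the build GRCm38 and the tools HTSeq, HISAT2, Trim Galore, SAMtools and edgeR, with no versions and no strand setting. The 5 summary lines of each file were left out of totals and tests (16.3% in no feature, 30.1% not aligned). Names, positions and exons came from GENCODE M21 (55240 of 55421 IDs matched), and promoter windows from RefSeq on GRCm38.p6 (5 of the 9 members matched).

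Low genes were removed by filterByExpr (counts of at least 10 and totals of at least 15), and the rest scaled by TMM and tested in R 4.3.3 with edgeR 4.0.16's quasi-likelihood test, genotype as the only term, Benjamini-Hochberg adjustment over all 15209 genes and a threshold of 0.05. The scripts were tested on 3 sets of simulated data. In these, 25% of 300 genes changed 2-fold and 62% of 300 genes changed 4-fold were called, over 3 sets of 15209 genes each. Of 282 calls, 7.45% were false. The share of genes changed in these sets was smaller than the 10.1% called in the data, so the rates may not carry over. Libraries of a genotype differed by 19.4 to 60.1 times sampling noise, as a chi-square over its degrees of freedom, and nothing in the labels says whether animals were pooled, so p-values measure the spread between these libraries. Members and lists were chosen with earlier results of these data known. Named transport genes are up to 2 per list and direction with the smallest p, called and with at least 1 CPM in the higher group; a few genes are not reported here. Slc4a5 and the retina list were chosen after values were seen. Alternatives were RLE, upper-quartile and no factors, DESeq2 1.42.0, limma-voom (limma 3.58.1) with and without quality weights, other filters, removal of mitochondrial and structural RNA genes, a threshold of 0.01 and leaving out libraries.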

Additional observations from a re-analysis of the deposited data

How the results depend on the processing

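The directions of Aqp1, Aqp3, Aqp5, Slc4a4, Slc4a11, Slc12a2, Atp1b1 and Car3 were kept in all 17 alternatives. Of these, the threshold of 0.01 reuses the main fit, so its directions could not differ. Car2 turned without wildtype replicate 3, to 0.72 on the log2 scale. With single libraries left out the log2 fold change of Car2 ran from -2.39 to 0.72. With each library left out in turn, 0 to 1 members were called higher and 0 to 2 lower, 9 to 25 other transport genes higher and 0 to 6 lower, and 340 to 1227 genes higher and 271 to 847 lower over all genes. DESeq2 called 2 members higher, and 1325 genes higher and 1033 lower. With no low-count filter 4 members were called higher (Aqp1, Slc4a4, Atp1b1 and Car3), Car2 was also called lower, 12 other transport genes lower, and 1588 genes higher and 1137 lower. Without mutant replicate 1 and wildtype replicate 1 together, 0 members were called higher by edgeR. At an adjusted p of 0.01, 0 members were called higher and 0 lower, 7 other transport genes higher and 0 lower, and 307 genes higher and 261 lower. The stricter threshold cannot call more genes than the main one. Fits with fewer libraries did not all call fewer. Without wildtype replicate 1, 1227 genes were higher and 847 lower, against 850 and 679 in the main fit. The other fits that left out a single library called fewer genes in both directions. The cause of the moves other than that of the threshold was not tested. No paired analysis was possible because the labels number no replicates within the groups; the numbers 1 to 3 were given in accession order and pair nothing. With 3 libraries a group, the values of Car2, Car3 and Slc4a11 were too spread for a call in the main fit. Their 95% intervals held 0, and neither a difference nor its absence was shown.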

Other observations

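Some transport genes chosen after their values were seen followed single libraries rather than genotype. Aqp4, the water channel of glia and ciliary epithelium, had 3.61, 3.61 and 17.5 CPM in mutant libraries, against 0.0567, 2.27 and 10.5 CPM in wildtype libraries. Aqp4 was lowest in W1, the library with the fewest pigment cell counts. Slc12a5, the potassium-chloride cotransporter of neurons, had 5.51, 1.11 and 2.25 CPM in mutant libraries, against 2.33, 2.61 and 42.7 CPM in wildtype libraries. The potassium channel gene Kcnma1 had 2.33, 0.610 and 1.17 CPM in mutant libraries, against 0.454, 0.511 and 17.8 CPM in wildtype libraries. Both were highest in W3, which held 1913 CPM over the retina markers. The part of neighbouring eye tissue in these values was not tested.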
